A study of Mus musculus with 60 samples.

Results

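The expression of 9 genes that write, erase or read DNA methylation was followed in the hippocampus of R6/1 and wild-type (WT) mice: the methyltransferases Dnmt1, Dnmt3a and Dnmt3b, the dioxygenases Tet1, Tet2 and Tet3, and the methyl-CpG-binding domain genes Mbd1, Mbd2 and Mbd3. They were taken by symbol from the deposited expression table, in which all 9 were found among 24508 gene symbols. R6/1 mice, a transgenic model of Huntington's disease, hold an inserted fragment of human huntingtin (its promoter and first exon, with a long CAG repeat) and keep both mouse Htt copies. Both genotypes were 30 weeks old and of a mixed CBA x C57BL/6 background, and no treatment is named for either. RNA came from whole hippocampus in 9 independent biological replicates per genotype, so each value is an average over all cell types of the tissue.

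In DNA methylation, Dnmt3a and Dnmt3b place methyl groups on cytosines of unmethylated CpG dinucleotides, and Dnmt1 copies the pattern onto the new strand after replication. The Tet enzymes oxidise methylcytosine to hydroxymethylcytosine and further products, which base excision repair can replace by plain cytosine. Methyl-CpG-binding proteins attach to methylated sites and bring in repressor complexes such as NuRD, of which Mbd2 and Mbd3 are alternative subunits. Adult neurons no longer divide, yet they express Dnmt1 and Dnmt3a and are rich in hydroxymethylcytosine.

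The promoters of the 3 genes that changed are printed first, because their CpG dinucleotides are the substrate of the enzymes described here. Sequences are RefSeq's (assembly GRCm38.p6), 300 bases each, from 250 before to 50 after an annotated start, and each was matched letter for letter to a single place in build NCBIM37. Of the 9 genes, 7 had an entry, and Mbd1 and Mbd2 are named only. Each is written 5′ to 3′ along the gene's own strand, with every CpG in capitals. The Tet2 window lies at chr3:133207305-133207604, minus strand, and is set around the annotated gene start, with the first 250 letters before it.
Tet2: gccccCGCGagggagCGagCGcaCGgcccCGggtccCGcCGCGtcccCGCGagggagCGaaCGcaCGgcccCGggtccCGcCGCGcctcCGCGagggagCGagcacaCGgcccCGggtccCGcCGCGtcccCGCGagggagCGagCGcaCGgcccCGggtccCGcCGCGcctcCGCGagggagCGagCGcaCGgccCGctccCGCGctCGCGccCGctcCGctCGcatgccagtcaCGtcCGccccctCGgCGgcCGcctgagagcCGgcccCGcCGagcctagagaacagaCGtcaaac
The Tet3 window lies at chr6:83391623-83391922, minus strand, also set around the annotated gene start.
Tet3: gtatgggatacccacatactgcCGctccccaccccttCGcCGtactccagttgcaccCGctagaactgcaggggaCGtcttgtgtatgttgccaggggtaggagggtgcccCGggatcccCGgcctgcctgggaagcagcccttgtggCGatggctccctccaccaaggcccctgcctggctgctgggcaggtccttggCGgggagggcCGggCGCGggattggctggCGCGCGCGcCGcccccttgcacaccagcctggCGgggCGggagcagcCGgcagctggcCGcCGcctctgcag
Dnmt1 lies at chr9:20757374-20757673, minus strand, the RefSeq start nearest to the annotated gene start (106 bases before it).
Dnmt1: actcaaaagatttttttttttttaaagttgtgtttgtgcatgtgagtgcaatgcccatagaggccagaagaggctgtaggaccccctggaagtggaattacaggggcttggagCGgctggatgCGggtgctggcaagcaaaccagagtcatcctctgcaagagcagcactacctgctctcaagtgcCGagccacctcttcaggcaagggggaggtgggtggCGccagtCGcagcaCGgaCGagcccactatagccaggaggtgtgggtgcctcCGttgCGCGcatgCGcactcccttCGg
The Tet2 window held 57 CpG dinucleotides at a G and C content of 81.3%. Only 0.152% of 32851 RefSeq promoter windows of the same length held as many, the median window having 7. The longest run of letters that stands 5 times in the Tet2 window is CCGCGAGGGAGCGA, 14 letters on the gene's own strand. Searched on both strands with overlaps allowed, it was found in 1 promoter window of 32851, that of Tet2. This match was fixed in advance, since the run was taken from that window, so the count does not measure rarity. The Tet3 window held 22 CpG dinucleotides, a count reached by 23.1% of all windows. The Dnmt1 window held 12, reached by 39.6%, and another RefSeq start of Dnmt1, at chr9:20757018-20757317, held 33. The third Dnmt1 start, at chr9:20764283-20764582, held 2, reached by 85.9%. The windows of Dnmt3a held 46, 47 and 18, that of Dnmt3b 30, that of Tet1 17 and that of Mbd3 22. These counts describe the letters alone, since no methylation was measured.

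Expression is given as RPKM, reads per kilobase scaled for depth, so levels of different genes can be set side by side as far as the gene lengths behind them hold. For Dnmt3a the RPKM imply 9.95 kb, where GENCODE exons span 16.6 kb, and for Dnmt1 6.33 kb against 5.26 kb. Lengths were within 10% of GENCODE for 44.9% of 11734 genes compared, so orders and shares within a library rest on the authors' lengths, while a gene's difference between genotypes does not. By WT mean the order was Mbd3, Mbd2, Mbd1, Dnmt1, Dnmt3a, Tet3, Tet2, Tet1 and Dnmt3b. Mbd3 stood at 52.4 ± 1.93 RPKM (SD, n = 9), a level passed by 8.65% of the 14446 tested genes, and it exceeded Mbd2 in all 9 WT libraries by 3.32 to 4.09 times. Mbd1, Dnmt1 and Dnmt3a could not be ordered beyond their spread, since the ranges of neighbours overlapped and each order held in 6 of 9 libraries. Tet3 and Tet2 also overlapped in WT. Tet1 was lower than Tet2 in every WT library, by 3.92 to 4.57 times. Dnmt3b was the lowest of the 9 genes, at 10 to 24 reads per WT library. In R6/1 the order of Tet2 and Tet3 was the opposite, with ranges that did not overlap, and Dnmt1 exceeded Mbd1 in 9 of 9 libraries.

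**Figure D1:**
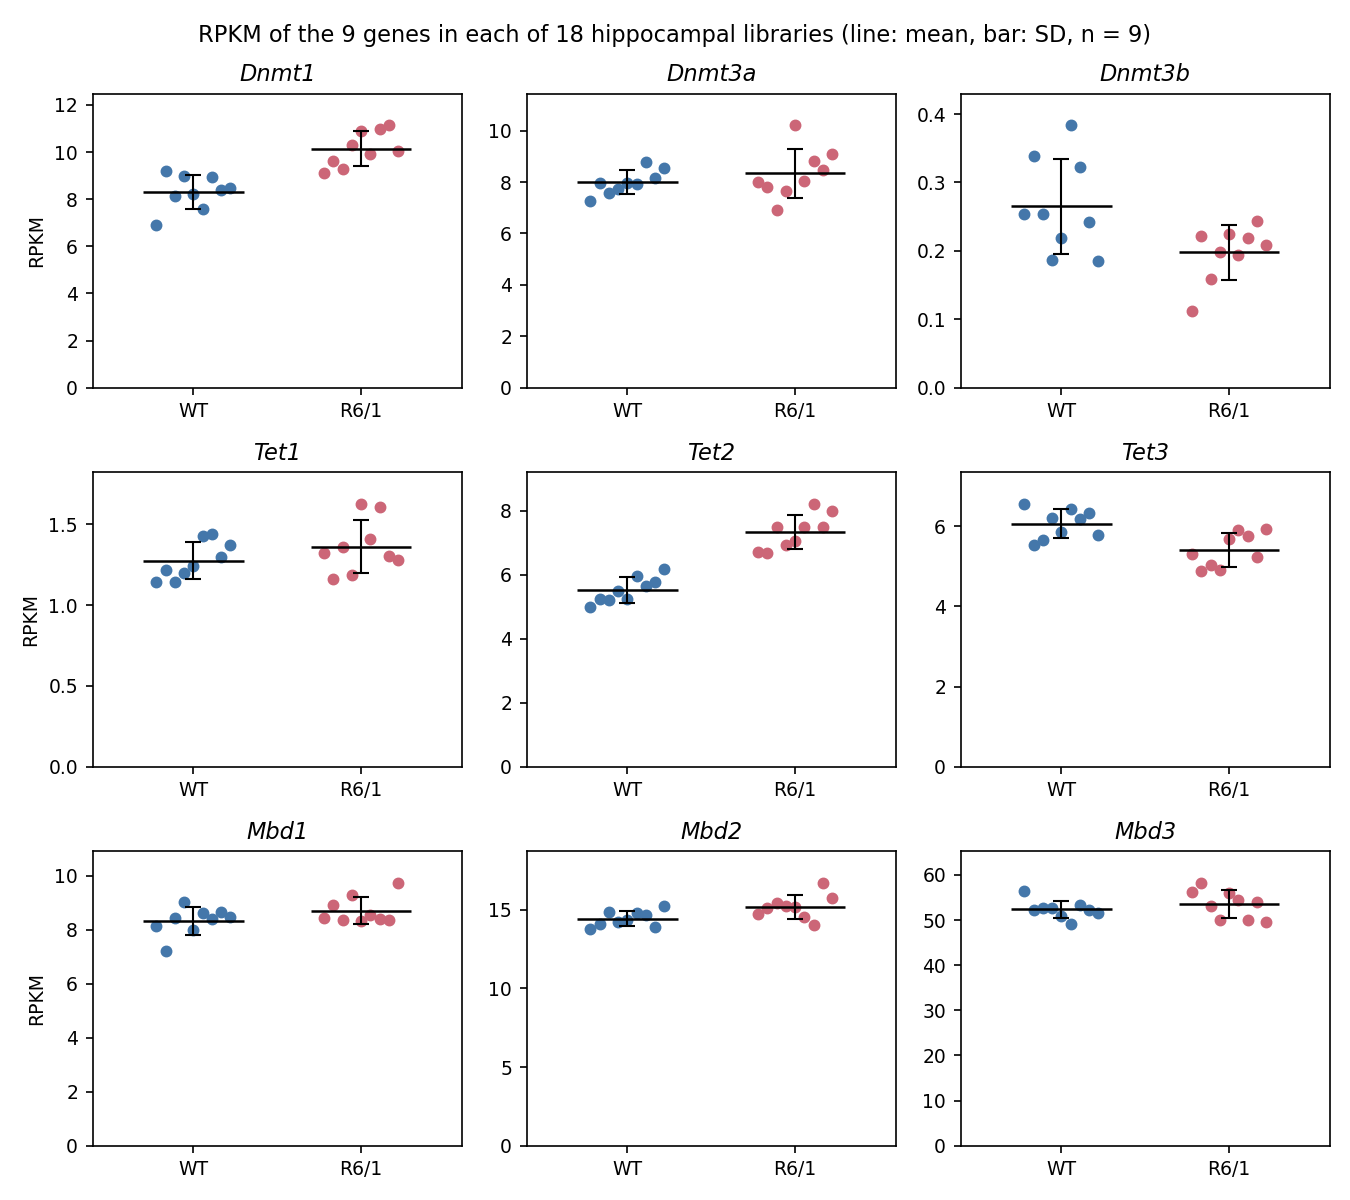
RPKM (y axis, from 0, a separate scale per gene) of the 9 genes in each WT (blue) and R6/1 (red) library, with the mean as a line and the SD as a bar (n = 9). The genotypes separate fully for Tet2 (highest WT 6.17, lowest R6/1 6.68) and overlap for each of the other genes.

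Differences between genotypes were tested for 8 of the 9 genes, Dnmt3b being below the minimum of 0.5 RPKM. Dnmt1 and Tet2 were higher and Tet3 was lower in R6/1 at an adjusted p under 0.05 (limma on log2 of RPKM plus 0.5, adjusted over all genes tested), and the other 5 did not pass. The 3 of 8 are not above the background, since 48.3% of all 14446 tested genes passed the same threshold (24.8% higher and 23.5% lower in R6/1). In the authors' deposited table the same 3 genes had an adjusted p under 0.05, beside 40.4% of 18395 genes. The scaling of libraries bears on the weakest of these calls. With each library divided by its own total of reads on genes, Tet3 no longer passed, and 5 of the 8 genes were higher (Dnmt1, Tet2, Mbd1, Mbd2 and Mbd3) against a background of 35.4% higher and 52.9% called in either direction. That scaling called 5113 genes higher among 7638 called, against 3586 among 6980 with the authors' scaling, and moved the median log2 difference of all tested genes from 0.004 to 0.069.

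**Figure D2:**
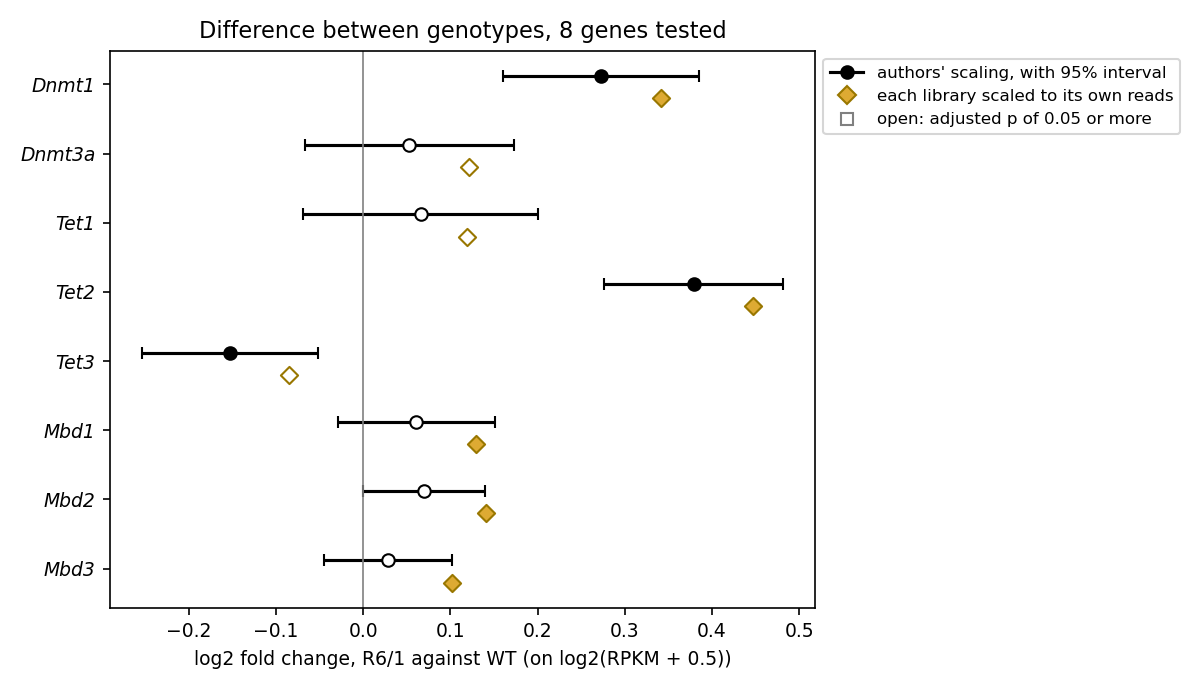
Log2 fold change of R6/1 against WT on log2(RPKM + 0.5) (x axis) for the 8 genes tested, with circles and 95% intervals for the authors' scaling, diamonds for libraries scaled to their own reads, and open symbols where the adjusted p was 0.05 or more. Dnmt1 and Tet2 are filled under both scalings, Tet3 under the authors' scaling alone, and Mbd1, Mbd2 and Mbd3 under own-read scaling alone.

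Among the methyltransferases, Dnmt1 had a lowest, median and highest level of 6.91, 8.40 and 9.21 RPKM in WT and of 9.11, 10.0 and 11.2 RPKM in R6/1. In R6/1, 8 of 9 libraries lay above every WT library, and only R6/1 replicate 1 lay inside the WT range. The means were 8.32 ± 0.726 and 10.1 ± 0.751 RPKM (SD, n = 9). The log2 fold change of Dnmt1 was 0.27 (SE 0.0537, 95% interval 0.16 to 0.38, adjusted p = 0.000305). Its reads numbered 556 to 913 per WT library and 947 to 1068 per R6/1 library. The fold change stayed between 0.24 and 0.29 when any 1 library was left out.

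Dnmt3a, the main de novo methyltransferase of the adult brain, had a lowest, median and highest level of 7.26, 7.96 and 8.79 RPKM in WT and of 6.93, 8.06 and 10.2 RPKM in R6/1. The R6/1 range held the whole WT range. Its log2 fold change was 0.05 with a 95% interval of -0.07 to 0.17 (adjusted p = 0.471), so a rise of the size fitted for Dnmt1 lies outside the interval for Dnmt3a. The ratio of Dnmt1 to Dnmt3a, in which the scaling of libraries cancels, was 0.953 to 1.16 in WT and 1.07 to 1.35 in R6/1. Dnmt1 was above Dnmt3a in 6 of 9 WT libraries and in 9 of 9 R6/1 libraries, and the ranges of the ratio overlapped. With GENCODE lengths the ratio was above 1 in all 18 libraries, its median being 2.07 in WT and 2.48 in R6/1.

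Dnmt3b, the de novo enzyme that is most active in the early embryo, was at 0.186, 0.254 and 0.384 RPKM (lowest, median, highest) in WT and at 0.113, 0.209 and 0.244 RPKM in R6/1. In WT, 5 libraries lay above every R6/1 library, and all 9 R6/1 libraries lay below the WT median. The whole evidence is 147 reads over the WT libraries (exact 95% Poisson interval 124 to 173, counting error only) and 120 over the R6/1 libraries (99.5 to 143.5), before scaling for depth. With no minimum level the limma fit gave Dnmt3b a log2 fold change of -0.13 (adjusted p = 0.0622, with 35.2% of 20791 genes called), and the authors' deposited table gave -0.35 (adjusted p = 0.109).

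Among the Tet enzymes, Tet2 had a lowest, median and highest level of 4.98, 5.49 and 6.17 RPKM in WT and of 6.68, 7.49 and 8.21 RPKM in R6/1. Every R6/1 library lay above every WT library. Ranges without overlap were found for 11.9% of tested genes in either direction and for 5.5% in this one. The means were 5.53 ± 0.396 and 7.34 ± 0.539 RPKM (SD, n = 9), a ratio of 1.33. Tet2 had a log2 fold change of 0.38 (SE 0.0493, 95% interval 0.28 to 0.48, adjusted p = 3.11e-06). A change at least this large in either direction was fitted for 15.0% of tested genes. The value ran from 0.36 to 0.40 as each library was left out in turn.

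Tet3, the family member with the highest WT mean, had a lowest, median and highest level of 5.53, 6.19 and 6.56 RPKM in WT and of 4.88, 5.32 and 5.92 RPKM in R6/1. In R6/1, 5 libraries lay below every WT library, and the ranges overlapped. Its log2 fold change was -0.15 (SE 0.0484, 95% interval -0.25 to -0.05, adjusted p = 0.0130). Under own-read scaling it was -0.09 (adjusted p = 0.143), so the fall of Tet3 holds relative to the authors' size factors. Tet1 had 1.14, 1.24 and 1.44 RPKM in WT and 1.16, 1.32 and 1.63 RPKM in R6/1 (lowest, median, highest), with overlapping ranges. The log2 fold change of Tet1 was 0.07 with a 95% interval of -0.07 to 0.20 (adjusted p = 0.419).

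Within the Tet family the balance between Tet2 and Tet3 separated the genotypes without overlap. This comparison does not depend on how libraries were scaled. Tet2 alone already separated the genotypes, and how many other gene pairs separate by their ratio was not counted. Tet2 divided by Tet3 was 0.760, 0.913 and 1.07 (lowest, median, highest) in WT and 1.24, 1.37 and 1.49 in R6/1. Tet2 exceeded Tet3 in 1 of 9 WT libraries and in 9 of 9 R6/1 libraries, and the same counts were found with GENCODE lengths. As a share of the summed RPKM of the 3 genes, Tet2 went from 42.9% ± 1.82 to 52.0% ± 1.62 and Tet3 from 47.2% ± 2.18 to 38.3% ± 1.32 (SD, n = 9), both without overlap. Tet1 held 9.91% and 9.64%, so the shares of Tet2 and Tet3 mirror each other. The family's sum was 12.9 ± 0.651 RPKM in WT and 14.1 ± 0.975 in R6/1, and the ranges overlapped. In the Dnmt family the share of Dnmt1 was 50.1% in WT and 54.4% in R6/1 (39.5% and 43.5% of reads, without length), with overlap, and Dnmt3b held 1.61% and 1.05%. In the Mbd family Mbd3 held 69.7% and 69.1%. The shares are given as a description, with no test.

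**Figure D3:**
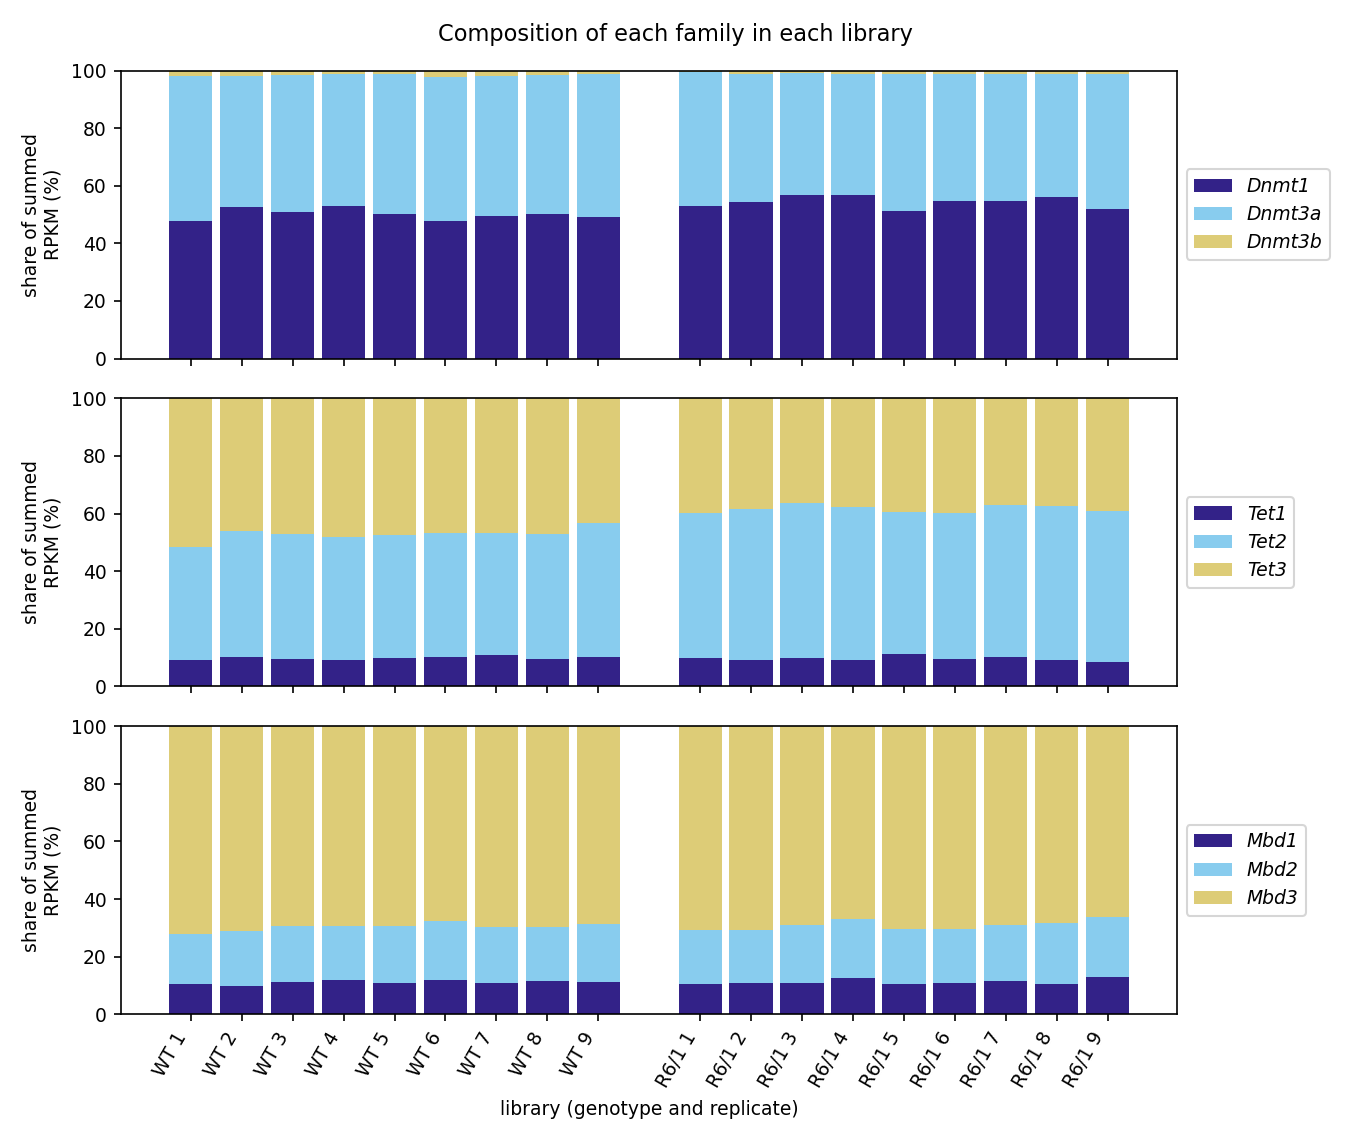
Share of each gene in the summed RPKM of its family (y axis, %) in each of the 18 libraries, WT on the left and R6/1 on the right. The Tet2 segment is 39.3% to 46.3% in WT and 49.1% to 54.0% in R6/1, while the segments of the Dnmt and Mbd genes overlap between genotypes.

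None of the Mbd genes passed the test with the authors' scaling. Mbd1, which binds methylated CpG and recruits histone methylation, was at 8.33 ± 0.516 RPKM in WT and 8.70 ± 0.504 in R6/1, a log2 fold change of 0.06 (95% interval -0.03 to 0.15, adjusted p = 0.257). Mbd2, a methyl-CpG reader within NuRD, had 13.8, 14.4 and 15.2 RPKM in WT and 14.0, 15.2 and 16.7 in R6/1 (lowest, median, highest), with overlapping ranges. Its log2 fold change was 0.07 (95% interval -0.0001 to 0.14, adjusted p = 0.0917), and it passed without R6/1 replicate 7, the library with the lowest R6/1 value (0.08, adjusted p = 0.0464). Mbd3, the NuRD subunit that binds methylated DNA weakly, had 49.2, 52.3 and 56.3 RPKM in WT and 49.5, 54.0 and 58.2 in R6/1. Its ranges overlapped too, and the log2 fold change was 0.03 (95% interval -0.04 to 0.10, adjusted p = 0.525). With own-read scaling the values of Mbd1, Mbd2 and Mbd3 were 0.13, 0.14 and 0.10 (adjusted p = 0.0188, 0.00311 and 0.0176).

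The 9 genes differed in how much they varied between libraries of one genotype. The coefficient of variation was lowest for Mbd2 in WT (3.34%) and R6/1 (4.98%) and highest for Dnmt3b (26.1% and 20.2%), the gene with the fewest reads. That of Dnmt3a was 5.85% in WT and 11.4% in R6/1. Its highest R6/1 level was in replicate 5, and its lowest in replicate 3, the library with the highest Ttr, a choroid plexus gene (1696 RPKM). Replicate 5 had 115 RPKM of Ttr, and the lowest Ttr in R6/1 was in replicate 7 (33.4 RPKM). Whether choroid plexus content bears on the spread of Dnmt3a was not tested.

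Tet2 was also the only one of the 9 genes whose start lay inside a lamin B1 domain, a stretch of chromosome held at the nuclear lamina. The authors deposited 1 domain list per genotype, so domain borders have no replicate spread here. Each chromatin sample pooled mice, per the labels' protocols, and how the 3 replicates per genotype were combined into a list is not given in the sources used here. Tet2 lies at chr3:133126643-133207354 (NCBIM37, minus strand, protein coding). In WT its whole body was in a domain of 3.59 Mb at chr3:131350001-134939000. In R6/1 the domain there was chr3:133237001-134939000, of 1.7 Mb, whose border was 29.6 kb from the Tet2 start with the whole gene outside. That gap is smaller than the step between the lists' borders near Mbd2 (chr18:70818001 in WT and 70781001 in R6/1). Whether the Tet2 start lies outside in R6/1 is therefore not resolved beyond the border as listed. The authors' score ranks that R6/1 domain 166 of 166 in its list, and the WT domain 108 of 145 in the other. Of 12827 expressed genes placed on the genome, 13.0% started in a WT domain and 7.99% in an R6/1 domain, so 1 of 9 in WT and 0 of 9 in R6/1 are near the background.

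Of the other genes, Mbd2 reached with its 3′ end into an R6/1 domain, its start being 53.2 kb from it in R6/1 and 90.2 kb from a domain in WT. The gene ends at 70785785, shortly past the R6/1 border at 70781001, where the WT border is 70818001. Where borders near the 9 genes differed between the lists, none differed by less, so this contrast is at the limit of the lists. Dnmt1 (chr9:20711650-20757317, minus strand) and Tet3 (chr6:83312367-83391672, minus strand) started 518.3 kb and 1695.7 kb from the nearest WT domain. Dnmt3a (chr12:3806007-3914443), Dnmt3b (chr2:153475186-153513466), Tet1 (chr10:62267318-62361866) and Mbd3 (chr10:79855284-79862295) lay 1670.0, 3107.2, 612.1 and 5566.3 kb away, and Mbd1 723.9 kb away. All 9 are protein-coding genes. Exons of Dnmt3a share 133 bases with Gm10485 on the opposite strand, and since the strand setting of the counting is not given, reads there cannot be assigned. The other 8 share no exonic base with another annotated gene.

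The genes that start in the WT domain of Tet2 did not move as a block. In the part of that domain missing from the R6/1 list, Tet2, Ppa2 (0.19, adjusted p = 0.000395) and Ints12 (0.19, adjusted p = 0.0148) rose by log2 fold change and Npnt, an extracellular matrix gene, fell by 0.97 (adjusted p = 9.41e-08). Aimp1, Tbck and Gstcd did not pass there (0.10, 0.05 and 0.07). In the part kept in R6/1, Cxxc4, whose protein binds unmethylated CpG and is known as a partner of Tet2, also rose (4.45 to 5.44 RPKM, log2 fold change 0.26, adjusted p = 0.000828), 692.4 kb from the Tet2 start. Over all tested genes, 24.7% of the 692 that started in a WT domain alone were higher in R6/1 and 19.8% lower, against 25.7% and 23.8% of the 11110 in no domain. Tacr3, the other gene tested in that part, did not pass (-0.12, adjusted p = 0.576). Dkk2 and Cenpe were below the tested level (0.188 and 0.124 RPKM, and 0.338 and 0.529 RPKM, in WT and R6/1), and Mir1895 was listed at 0. These 12 genes are all those of the table that start in the domain, and they were named after their values were seen. Whether the shorter domain in the R6/1 list bears on Tet2 expression was not tested.

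**Figure D4:**
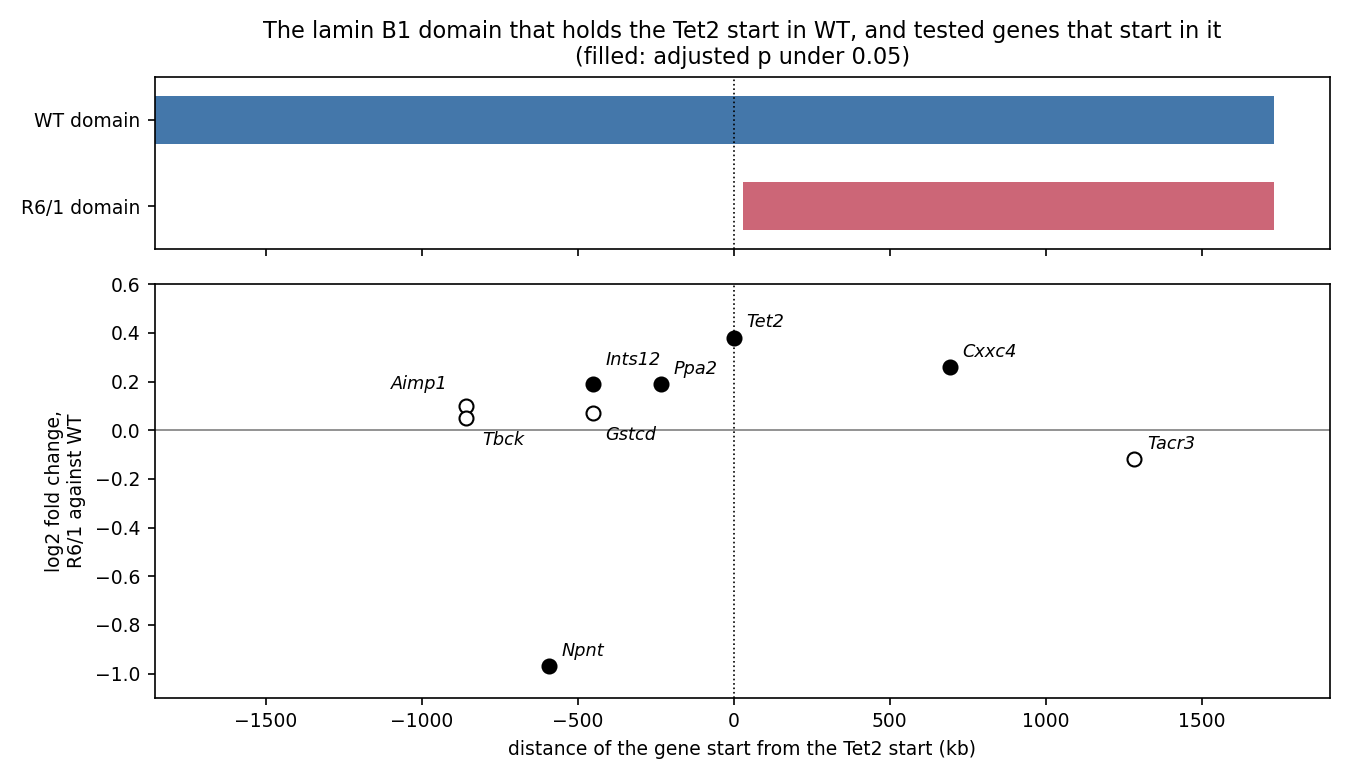
Upper panel: the lamin B1 domain around Tet2 in WT and R6/1 by distance from the Tet2 start (x axis, kb). Lower panel: log2 fold change of the tested genes that start in the WT domain (y axis), filled where the adjusted p was under 0.05, with both Tet2 (0.38) and Npnt (-0.97) in the part absent from the R6/1 list.

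The genes around the 9 were counted from lists of known partners. All lists together held 72 genes, of which 61 were tested, with 23 higher and 8 lower in R6/1. These shares can be read against the 24.8% and 23.5% of all tested genes, and against a median log2 fold change of 0.004. Under own-read scaling 31 were higher and 6 lower, against 35.4% higher among all genes, and no called gene of the lists changed sign.

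Of 7 partners of the methyltransferases, 5 were tested, 2 rose and none of the 5 fell, with a median of 0.11. Pcna, the replication clamp that Dnmt1 binds, rose from 28.6 ± 1.39 to 37.1 ± 1.94 RPKM without overlap (log2 fold change 0.37, adjusted p = 7.46e-08). Usp7, a deubiquitinase that stabilises Dnmt1, rose by 0.20 (adjusted p = 6.66e-05). Uhrf1, which brings Dnmt1 to hemimethylated DNA, was at 0.375 RPKM in WT and 0.177 in R6/1, below the tested level. The 5 genes of dividing cells were below that level too, with a summed level of 0.941 to 1.37 RPKM in WT and 0.614 to 0.961 in R6/1. Their values went both ways, since Mki67 (0.292 and 0.105 RPKM), Top2a (0.236 and 0.0403) and Cdk1 (0.121 and 0.0634) had lower means in R6/1 and Ccnb1 (0.128 and 0.189) and Birc5 (0.325 and 0.421) higher ones. Their part in the values of Dnmt1 and Pcna was not tested.

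Of 13 genes that act with or after the Tet enzymes, 12 were tested, 2 rose and 4 fell, with a median of -0.05 (0.01 under own-read scaling, with 4 higher and 3 lower). The falls with the largest changes were Gadd45b, an activity-induced gene linked to demethylation (7.63 to 5.73 RPKM, log2 fold change -0.38, adjusted p = 0.00303), Cxxc5, a CpG-binding relative of Cxxc4 (-0.27, adjusted p = 0.00221), and Idh1, a source of the Tet cosubstrate 2-oxoglutarate (-0.28, adjusted p = 0.00744). The fourth fall was Gadd45g (-0.24, adjusted p = 0.0413), which did not pass under own-read scaling. The rises were Cxxc4 and Idh2, the mitochondrial source of 2-oxoglutarate (20.3 to 24.0 RPKM, log2 fold change 0.23, adjusted p = 0.00175). These 2 and Gadd45g were named after their values were seen, to give the whole list of calls. Tdg, the glycosylase that removes oxidised methylcytosine, was listed at 0.0602 and 0.0421 RPKM, too low to test. Since the counter and annotation are not given, low expression cannot be told apart from reads lost in counting. Of 6 other genes listed as readers 3 rose and none fell, with a median of 0.08. Whether each of them binds methylated CpG was not tested. Mbd5 rose from 9.59 ± 0.734 to 11.6 ± 1.27 RPKM (log2 fold change 0.25, adjusted p = 0.00218, overlapping ranges). The zinc finger readers Zbtb38 and Zbtb33 rose by 0.19 (adjusted p = 0.0118) and 0.14 (adjusted p = 0.0233). Mbd4, a glycosylase with a methyl-CpG-binding domain, was at -0.09 (adjusted p = 0.545).

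Of 13 NuRD subunits beside Mbd2 and Mbd3, 7 rose and none fell, with a median of 0.10 (9 rose under own-read scaling). Mta3 had the largest rise of these, from 17.5 ± 1.24 to 23.3 ± 1.46 RPKM without overlap (log2 fold change 0.40, adjusted p = 5.52e-07). Gatad2b rose by 0.29 (adjusted p = 0.000904) and the histone-binding subunit Rbbp4 by 0.24 (adjusted p = 1.06e-05). Of 9 genes of the methyl donor cycle, 3 rose and 1 fell, with a median of 0.09. The fall, of Mthfd1 (-0.09, adjusted p = 0.0393, named after its value was seen), was lost under median centring, quantile normalization and own-read scaling, and 5 genes rose under own-read scaling. The serine hydroxymethyltransferases Shmt1 and Shmt2 rose by 0.49 (adjusted p = 0.00197) and 0.26 (adjusted p = 0.00063), and Mat2a, which makes S-adenosylmethionine, by 0.15 (adjusted p = 0.0343).

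Genes listed as silenced or made allele-specific by DNA methylation were counted as well. Of 10 germline genes, 3 reached the tested level, so the test covers only germline genes that were not silent here. Whether methylation bears on them was not tested. Sycp3 (5.63 to 3.99 RPKM, log2 fold change -0.45, adjusted p = 5.92e-06) and Dazl (-0.31, adjusted p = 0.00611) fell, and Tex101, Hormad1 and Asz1 were listed at 0 in all 18 libraries. Of 14 imprinted genes, 13 were tested, 6 rose and 1 fell, with a median of 0.26. Mest rose from 7.43 ± 1.21 to 12.8 ± 1.02 RPKM without overlap (log2 fold change 0.76, adjusted p = 9.60e-08) and Plagl1 by 0.81 (adjusted p = 0.00285), while Nnat fell from 184 ± 49.9 to 101 ± 14.7 RPKM (-0.83, adjusted p = 2.12e-05).

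**Figure D5:**
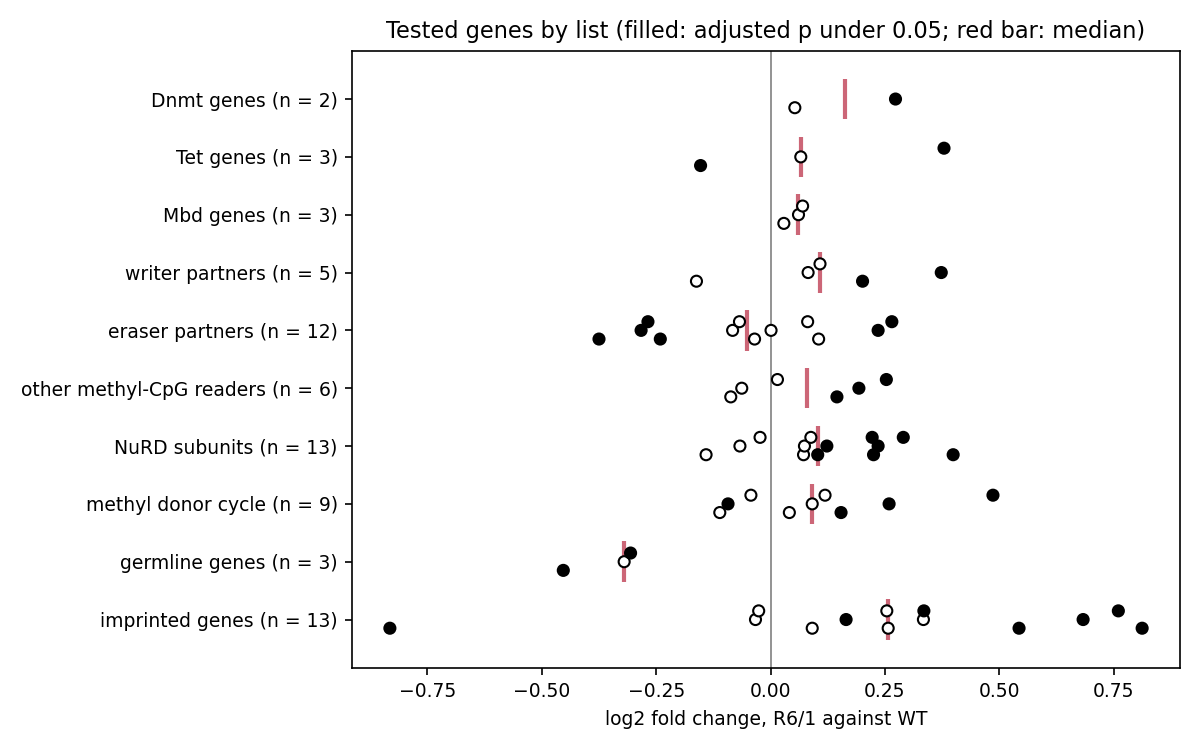
Log2 fold change of R6/1 against WT (x axis) for each tested gene of the 9 and of the lists around them, filled where the adjusted p was under 0.05, with a red bar at each list's median. The medians run from -0.32 for the 3 germline genes tested to 0.26 for the imprinted genes.

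Marker genes of several cell types moved with genotype in these whole-tissue libraries. All 5 neuron markers were lower in R6/1, with a summed level of 1707 to 2051 RPKM in WT and 1306 to 1474 in R6/1, as were all 5 astrocyte markers (428 to 598 and 317 to 463), 4 of 5 oligodendrocyte markers (920 to 1181 and 550 to 974), 2 of 5 microglia markers (91.3 to 130.6 and 73.0 to 116) and 1 of 4 endothelial markers. None of the 4 oligodendrocyte precursor markers or 6 choroid plexus markers passed, the latter summing to 25.8 to 1075 RPKM in WT and 39.0 to 1741 in R6/1, and no marker was at 0 in all libraries. These counts use the authors' scaling, with which 23.5% of all tested genes were lower. Under own-read scaling the oligodendrocyte marker Mag (adjusted p = 0.0945) and the endothelial marker Kdr (adjusted p = 0.119) no longer passed. The part of the marker shifts in the values of Dnmt1, Tet2 and Tet3 was not tested, and fewer cells of a type cannot be told apart from less RNA per cell. With Ttr as a covariate Dnmt1, Tet2 and Tet3 were again the only ones of the 8 that passed. Depth was similar across libraries, 12299435 to 16736544 reads on genes.

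The genes whose library-to-library pattern was most like each of the 9 were ranked by the root mean square difference over 18 libraries, after centring on genotype means and scaling to an SD of 1, so that the genotype difference itself does not enter. The nearest to Tet2 were Gm13629 (0.559) and Atr (0.585), and to Tet3 Sec16a (0.489) and Htt (0.506), where the median over all genes was 1.43 for both. Being the smallest over all tested genes, such values fall below the median by selection alone. Mouse Htt, the counterpart of the transgene, was at 17.6 RPKM in WT and 18.3 in R6/1. For Dnmt1 they were Gucy2g (0.507) and Mtcl1 (0.577), for Dnmt3a 4930402H24Rik (0.461) and Dip2a (0.50), and for Tet1 Sp1 (0.584) and Cmah (0.589). For Dnmt3b they were Wwp1 (0.582) and Inpp5a (0.592). Mbd1 had Gpsm2 (0.646) and Gria2 (0.695), Mbd2 Fra10ac1 (0.664) and Arfrp1 (0.67), and Mbd3 Ube2v1 (0.474) and Elob (0.537). Among the 9 themselves the nearest pairs were Dnmt3a with Tet1 (0.835), Tet1 with Tet2 (0.883) and Dnmt1 with Dnmt3a (0.91). The points share library depth and tissue composition, and the values are a description.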

How the data were processed

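Messenger RNA was sequenced from stranded libraries, per the labels' protocols. TopHat, Bowtie, DESeq2 and build mm9 (NCBIM37) are named without versions in the submitters' processing notes. The annotation, the counter and its strand setting are not given in the sources used here. The authors deposited RPKM for 24508 gene symbols, and 0 sample columns were left unused. The authors' deposited comparison table holds, per gene, a mean normalized count (a signal scaled by size factors), a log2 fold change with its error, a test score and p-values. Multiplying RPKM by the mean normalized count over the mean RPKM gives a normalized count. Divided by 1 constant per library, it gave whole reads (within 0.05) for 99.81% to 99.87% of the values checked. The RPKM are therefore scaled by size factors. The check took 11632 to 12554 values per library, of lower read numbers only. Read numbers were rounded, and the larger ones lay outside the check. The authors' deposited lamin B1 domains carry 1 score each, used only for ranks.

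Genes that averaged 0.5 RPKM or more over 18 libraries were tested with limma 3.58.1 (R 4.3.3, trend, two-sided) on log2(RPKM + 0.5), WT against R6/1, Benjamini-Hochberg adjusted over all 14446 genes, threshold 0.05. The script was checked on simulated data with few changed genes and known library scaling, so that check does not bear on the choice of scaling. A fold change on this scale understates changes of low genes. The members, the partner lists and the tests were chosen with earlier results of these data known. All members are named, of each list the 3 largest changes past the threshold plus Uhrf1, Tdg and Mbd4, and per member the 2 genes of most like pattern. In the list of other readers, 1 gene is not reported here and is not counted. Positions follow GENCODE on NCBIM37, and domain calls use gene starts. ATAC-seq and ChIP reads were not analysed here. Alternatives covered pseudocount, filter, scaling, model, reads and each library left out.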

Additional observations from a re-analysis of the deposited data

How the results depend on the processing

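Dnmt1, Tet2 and Tet3 were the members called under the other pseudocounts (0.1 and 1), filters, centring, quantile normalization, library weights, voom on recovered reads and in the authors' deposited table. Scaling to own reads gave 5 members higher and 0 lower, with Tet3 at -0.085, Mbd1 at 0.13, Mbd2 at 0.14 and Mbd3 at 0.10. The untested difference of Dnmt3b was -0.28 with a pseudocount of 0.1 and -0.35 in the authors' deposited table. As single libraries were left out, Mbd2 ran from 0.053 to 0.083, passing at 0.083 without R6/1 replicate 7. The cause was not tested. Chosen after seeing the data, own-read scaling of the partner lists gave 4 eraser partners and 5 donor-cycle genes higher, and 0 donor-cycle genes lower, as also median centring (0) and quantile normalization (0). GENCODE lengths, also chosen afterwards, gave ratios of Dnmt1 to Dnmt3a of 2.07 in WT and 2.48 in R6/1. Counting starts within 100 kb of a domain gave 2 members in WT and 2 in R6/1, and counting gene bodies gave 1 in R6/1. A filter at 2 RPKM left Tet1 untested, and quantile normalization and voom gave Dnmt3b no value. Low read numbers limit Dnmt3b most.

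No pairing of same-numbered libraries across the genotypes is stated in the labels, and their deviations correlated between -0.053 and 0.237. With the replicate number as a block the called members were again Tet2 (adjusted p = 1.09e-05), Dnmt1 (adjusted p = 0.000302) and Tet3 (adjusted p = 0.0164). Each of replicates 1 and 3 correlated best with its own number, and the other 7 did not.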
